A study of Caenorhabditis elegans with 6 samples.

Results

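The genes described here are 10 genes of the sex determination pathway of the nematode Caenorhabditis elegans, taken by name from the gene symbol column of the deposited expression table with every probe set that column gives for them. The genes are xol-1, sex-1, her-1, tra-1, tra-2, tra-3, fem-1, fem-2, fem-3 and sup-26, which the table lists under its older name tag-310. They hold 20 of the 22548 probe sets tested. They are 10 of the 17394 genes that are the only gene named for at least 1 probe set, called below a probe set of their own. Such a probe set may still bind other transcripts. RNA from whole mixed-stage embryos was measured on 6 Affymetrix arrays. The mutant group, 3 arrays, was mir-35-41(nDf50) (strain VT2935 without nEx1187, an extrachromosomal array by its name), which lacks the clustered microRNA genes mir-35 to mir-41, and the other 3 arrays were wild type (N2). Worms of both groups were raised on plates supplemented with egg yolk at 20 °C, spent their last 24 hours at 25 °C, and gave their embryos by hypochlorite treatment. The related genes mir-42, mir-43 and mir-44 are not part of the named deletion, and the labels give neither the sex nor the age of the embryos.

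Sex in this worm is set in the embryo by the number of X chromosomes relative to the autosomes: XX animals become hermaphrodites and XO animals become males. X signal elements such as sex-1 hold down xol-1, the switch gene that promotes male fate, and xol-1 in turn controls whether the secreted ligand HER-1 is made. HER-1 blocks the membrane receptor TRA-2, and the FEM proteins, which TRA-2 restrains, direct the destruction of TRA-1, the last transcription factor of the cascade. Much of this pathway is also controlled after transcription, by RNA-binding proteins such as SUP-26, which represses tra-2. Earlier work tied the mir-35 family to sex determination through sup-26 and nhl-2.

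In these embryos none of the 10 genes passed the test for a difference between mutant and wild type. Of 20 probe sets, 0 passed the threshold of an adjusted p under 0.05 (limma, Benjamini-Hochberg over all probe sets), where 3.48% of all probe sets tested passed (2.83% higher and 0.648% lower in the mutant), so in a set of this size a count of 0 is close to the background. With the replicate number as a block 0 of the 20 passed as well, and 3.91% of all probe sets did. The adjusted p-values of the 20 lay between 0.161 and 0.902. An unadjusted p under 0.05 was reached by 2 of the 20, both of fem-1, against 19.4% of all probe sets. The array values of the groups did not overlap for 5 of the 20, against 24.3% of all probe sets. All differences were small: they ran from -0.29 to 0.33 on the log2 scale (mutant minus wild type), 8 above 0 and 12 below. The median absolute difference was 0.19, against 0.14 over all probe sets tested.

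**Figure D1:**
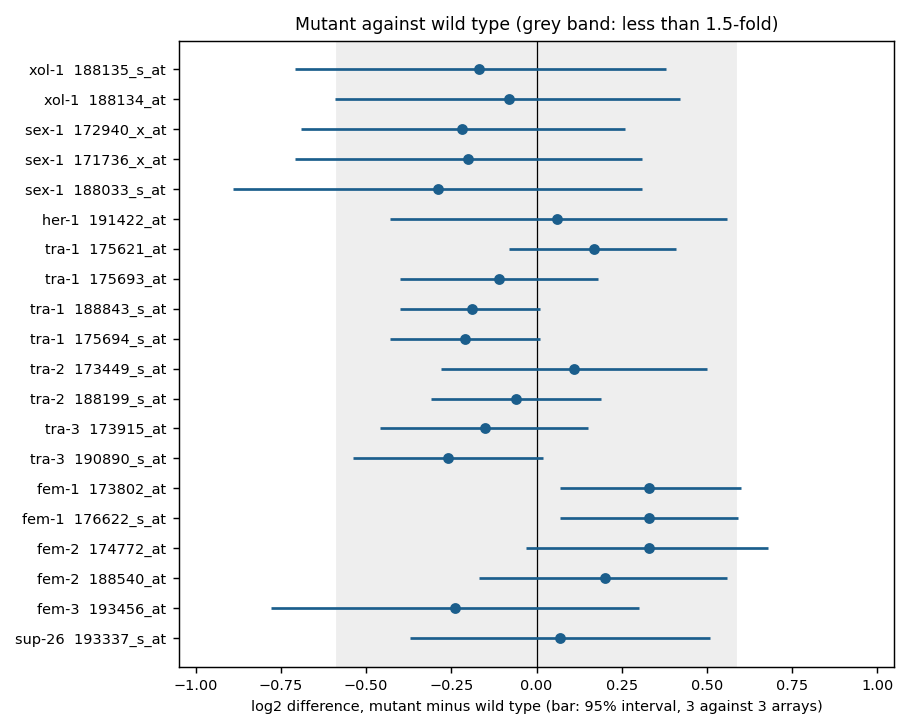
Difference between mutant and wild type for each of the 20 probe sets, in log2 units on the x axis, with bars for the 95% interval of limma (3 arrays against 3). All 20 intervals lie within a 2-fold change, and 11 lie inside the grey band of less than 1.5-fold, among them 3 of probe sets below the yeast controls.

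The size of difference that the arrays could have missed was read from the 16 probe sets that were brighter on all 6 arrays than yeast control probe sets, taken as background. All 16 of their 95% intervals lay within 2-fold in either direction, as did 89.0% over all probe sets above background. Intervals inside 1.5-fold were found for 8 of the 16, against 55.0% over all probe sets above background. The narrow intervals of probe sets at background bound nothing about their transcripts. The intervals cover only the spread between these arrays, and the labels do not state whether replicates were separate cultures, so the p-values measure only that spread, which may be technical. In whole embryos fewer cells of a type and less RNA per cell cannot be told apart.

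Most of the genes gave clear signal. Of the 20 probe sets, 16 were brighter on all 6 arrays than any of 5 control probe sets for yeast transcripts, which should find nothing to bind in worm RNA (brightest control 36.3 to 45.7 in the mutant and 39.5 to 46.7 in wild type, in normalized intensity). Every gene had at least 1 such probe set. For xol-1, sex-1, tra-2 and sup-26, however, each such probe set may also bind other transcripts, by the suffix of its name. Their signal is thus not shown to come from these genes alone. The 3 probe sets that stayed below the brightest yeast control on all 6 arrays were 2 of the 4 of tra-1 and 1 of the 2 of tra-2. The dimmer probe set of xol-1 was above it on 2 arrays. Intensities are compared here only within a probe set, since the brightness of different probe sets depends on their probes.

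**Figure D2:**
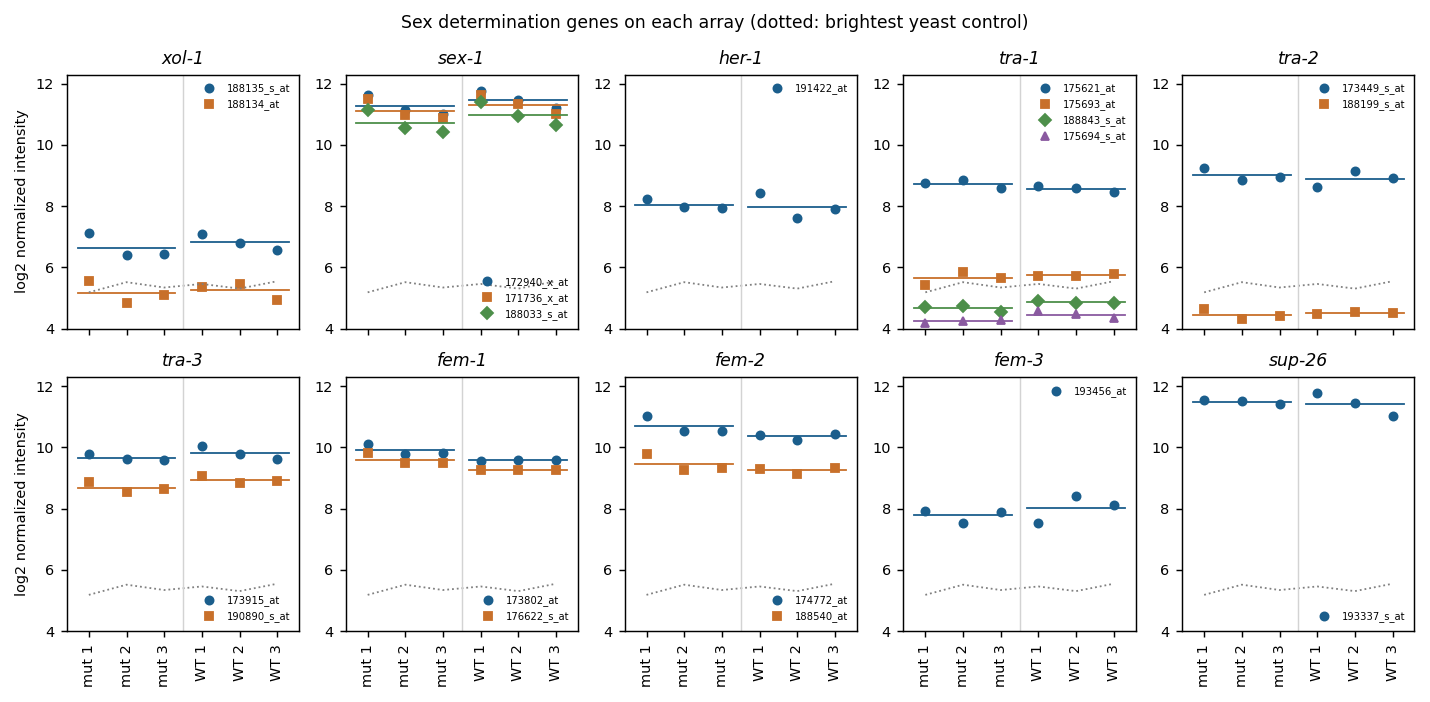
Log2 normalized intensity of each probe set on the 3 mutant arrays (mut) and the 3 wild type arrays (WT), 1 panel a gene, with group means as lines and the brightest yeast control as a dotted line. Groups overlap in most panels, and the fem-1 probe sets are the clearest case where all mutant arrays lie above all wild type arrays.

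The upstream X signal was read from sex-1, a nuclear hormone receptor gene on the X chromosome that represses xol-1. Its brightest probe set (172940_x_at) had intensities of 3138, 2273 and 2083 in mutant replicates 1, 2 and 3, against 3500, 2836 and 2348 in wild type replicates 1, 2 and 3. The groups overlapped, with the highest value of each on its replicate 1. The difference was -0.22 on the log2 scale (SE 0.20, n = 3 against 3, 95% interval -0.69 to 0.26, limma adjusted p = 0.612). With 1 array left out it ran from -0.39 (without mutant replicate 1) to -0.07 (without wild type replicate 1). The other probe sets of sex-1 gave -0.20 and -0.29, with adjusted p-values of 0.669 and 0.584 in the same limma fit, and with 1 array left out 188033_s_at ran from -0.51 to -0.09. By the suffix of their names, all 3 sex-1 probe sets may also bind other transcripts, and they read 1 gene, so they are not separate evidence. Within a group the brightest and dimmest arrays were 1.51 to 1.67 times apart in the mutant and 1.49 to 1.68 in wild type. This was more than the largest difference between the groups on any sex-1 probe set. In both groups the values fell from replicate 1 to replicate 3. With the replicate number as a block, the 188033_s_at interval was -0.53 to -0.05 (limma adjusted p = 0.168). The block intervals of 172940_x_at and 171736_x_at were -0.45 to 0.02 and -0.46 to 0.06.

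The switch gene xol-1, also on the X chromosome, encodes a relative of the GHMP kinases whose activity sets male fate. Its brighter probe set (188135_s_at) had intensities of 139, 84.3 and 85.6 in mutant replicates 1, 2 and 3, against 136, 111 and 93.9 in wild type replicates 1, 2 and 3. Mutant replicate 1 was the brightest of the 6 arrays and mutant replicates 2 and 3 were the dimmest. The difference was -0.17 (SE 0.23, n = 3 against 3, 95% interval -0.71 to 0.38, limma adjusted p = 0.748). It was -0.40 without mutant replicate 1 (limma adjusted p = 0.181), but -0.03 without wild type replicate 1 and -0.04 and -0.05 without mutant replicates 2 and 3. The dimmer probe set had a difference of -0.08, with values of 46.8, 28.6 and 34.4 in the mutant and of 41.0, 43.8 and 30.5 in wild type, near the yeast controls.

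The gene her-1, on chromosome V, encodes the secreted signal of male fate. Its single probe set had intensities of 299, 251 and 244 in mutant replicates 1, 2 and 3, against 342, 196 and 239 in wild type replicates 1, 2 and 3. Wild type held both the highest and the lowest value. The difference was 0.06 (SE 0.21, n = 3 against 3, 95% interval -0.43 to 0.56, limma adjusted p = 0.902), which leaves room for a level up to 1.47-fold higher or 1.35-fold lower in the mutant. With each array centred on its own median it was -0.00, and it was 0.29 without wild type replicate 1 and -0.12 without wild type replicate 2. All 6 arrays were well above the yeast controls. Whole embryos of mixed stage give 1 value for all cells, so these levels do not show which cells or which embryos held her-1 RNA.

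TRA-2 is the membrane receptor that HER-1 inhibits, and TRA-3 is a calpain protease that acts with it to promote female fate. Their genes are on chromosomes II (tra-2) and IV (tra-3). The brighter probe set of tra-2 had intensities of 600, 461 and 492 in mutant replicates 1, 2 and 3, against 394, 573 and 481 in wild type replicates 1, 2 and 3. The groups overlapped, with wild type replicate 1 the lowest array and mutant replicate 1 the highest. The tra-2 difference was 0.11 (SE 0.16, n = 3 against 3, 95% interval -0.28 to 0.50, limma adjusted p = 0.777). It was -0.03 without wild type replicate 1, -0.00 without mutant replicate 1, -0.08 with array weights and -0.14 without both arrays numbered 1. The second tra-2 probe set lay below the yeast controls on every array and gave -0.06.

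The brighter probe set of tra-3 had intensities of 887, 780 and 772 in mutant replicates 1, 2 and 3, against 1051, 891 and 785 in wild type replicates 1, 2 and 3. Its difference was -0.15 (SE 0.13, n = 3 against 3, 95% interval -0.46 to 0.15, limma adjusted p = 0.569), and -0.25 to -0.04 with 1 array left out. The other probe set of tra-3 had 468, 370 and 399 in the mutant and 540, 454 and 484 in wild type. Mutant replicate 1 lay inside the wild type range on both probe sets. The second difference was -0.26 (adjusted p = 0.298 by limma), and with 1 array left out it ran from -0.36 (without mutant replicate 1, adjusted p = 0.0982 by limma) to -0.19. Among the 10 genes, 0.0982 was the lowest adjusted p when 1 array was left out. By the suffix of its name, this second tra-3 probe set may also bind other transcripts. The brighter tra-3 probe set gave -0.22 without mutant replicate 1 (limma adjusted p = 0.388).

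FEM-1, FEM-2 and FEM-3 work as a complex: FEM-1 is an ankyrin repeat protein that serves as the substrate receptor of a ubiquitin ligase, FEM-2 is a protein phosphatase and FEM-3 is a protein without close relatives outside nematodes. The genes fem-1 and fem-3 are on chromosome IV and fem-2 is on chromosome III. Of the 10 genes, fem-1 came nearest to the threshold. Its brighter probe set (173802_at) had intensities of 1114, 876 and 905 in mutant replicates 1, 2 and 3, against 746, 772 and 769 in wild type replicates 1, 2 and 3. The second fem-1 probe set (176622_s_at) had 895, 720 and 722 in the mutant and 621, 611 and 616 in wild type. On both, all 3 mutant arrays lay above all 3 wild type arrays, and the wild type arrays were within 1.03 and 1.01 times of each other. Both differences were 0.33, or 1.26-fold (SE 0.11, n = 3 against 3), with 95% intervals of 0.07 to 0.60 and 0.07 to 0.59 and limma adjusted p-values of 0.173 and 0.161.

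The fem-1 probe sets read 1 gene, so their likeness is not replication. By the suffix of its name, the second may also bind other transcripts. Mutant replicate 1 was 1.25 and 1.24 times as bright as the mean of mutant replicates 2 and 3 on them. Without it the fem-1 differences were 0.22 and 0.23, with limma adjusted p-values of 0.159 and 0.146. Over all 6 fits that left out 1 array the fem-1 differences stayed above 0, between 0.22 and 0.40. Centring each array on its median gave 0.27 for both (limma adjusted p = 0.296), since it moved all differences by -0.07.

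For fem-2 the brighter probe set had intensities of 2073, 1497 and 1476 in mutant replicates 1, 2 and 3, against 1369, 1220 and 1385 in wild type replicates 1, 2 and 3. All 3 mutant arrays were above the wild type ones, and mutant replicate 1 was 1.40 times as bright as the mean of the other mutant arrays. The difference was 0.33 (SE 0.15, n = 3 against 3, 95% interval -0.03 to 0.68, limma adjusted p = 0.294), and with 1 array left out it ran from 0.17 (without mutant replicate 1) to 0.41. The second fem-2 probe set had 883, 618 and 637 in the mutant, against 635, 567 and 641 in wild type. Here the groups overlapped, the difference was 0.20 with all arrays, and it ran from 0.03 (without mutant replicate 1) to 0.29 with 1 array left out.

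The single probe set of fem-3 had intensities of 244, 186 and 236 in mutant replicates 1, 2 and 3, against 187, 340 and 278 in wild type replicates 1, 2 and 3. Wild type replicate 1 lay next to the lowest mutant array, while the other wild type arrays were the highest of all. The fem-3 difference was -0.24 (SE 0.23, n = 3 against 3, 95% interval -0.78 to 0.30, limma adjusted p = 0.622). With 1 array left out it ran from -0.48 (without wild type replicate 1, limma adjusted p = 0.180) to -0.05 (without wild type replicate 2, limma adjusted p = 0.942). Without both arrays numbered 1 it was -0.55 (limma adjusted p = 0.0671).

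TRA-1 is a zinc finger transcription factor of the GLI family and the end point of the cascade in body tissues, encoded on chromosome III. The brightest tra-1 probe set (175621_at) had intensities of 430, 462 and 387 in mutant replicates 1, 2 and 3, against 403, 385 and 352 in wild type replicates 1, 2 and 3. Mutant replicate 3 lay inside the wild type range. Its difference was 0.17 (SE 0.10, n = 3 against 3, 95% interval -0.08 to 0.41, limma adjusted p = 0.442). The other tra-1 probe sets were dim and had differences of the opposite sign, at -0.11, -0.19 and -0.21.

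On the dimmest 2 probe sets of tra-1 the groups did not overlap. These had 25.9, 26.6 and 23.4 in the mutant against 29.5, 28.8 and 28.2 in wild type (188843_s_at), and 18.2, 19.1 and 19.5 in the mutant against 23.7, 22.0 and 20.2 in wild type (175694_s_at). Both lay below the brightest yeast control on every array, with limma adjusted p-values of 0.290 and 0.273. The mean of all 4 tra-1 probe sets gave -0.09, a sign opposite to the brightest alone. No direction can be given for tra-1 from these values.

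The last gene, sup-26 on chromosome III, encodes an RNA-binding protein that represses tra-2. Its probe set, which may also bind other transcripts, had intensities of 3010, 2958 and 2713 in mutant replicates 1, 2 and 3, against 3550, 2774 and 2105 in wild type replicates 1, 2 and 3. The mutant arrays lay within 1.11 times of each other, inside a wild type range that spanned 1.69 times. The sup-26 difference was 0.07 (SE 0.19, 95% interval -0.37 to 0.51, n = 3 against 3, adjusted p = 0.873 by limma), and moved to 0.26 without wild type replicate 1 and to -0.12 without wild type replicate 3. The gene nhl-2, named beside sup-26 above, encodes a TRIM-NHL protein that acts with microRNAs. Its 1 probe set, which may also bind other transcripts, had 117, 98.8 and 108 in the mutant against 140, 107 and 98.9 in wild type. The nhl-2 difference was -0.09 (95% interval -0.44 to 0.26, limma adjusted p = 0.802). Only messenger RNA was measured, so protein levels of SUP-26 and NHL-2 are not covered.

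Arrays of 1 group varied more for these probe sets than for most of all those tested, which include probe sets at background. The median within-group SD of the 20 probe sets was 0.21 on the log2 scale, against 0.15 over all probe sets. Of the 20, 16 were above background, and 8 of these 16 had intervals inside 1.5-fold. The share was 55.0% over all probe sets above background and 67.4% over all probe sets, so the higher SD is not shown to be particular to these genes. Mutant replicate 1 was the brightest mutant array for 16 of the 20, against 40.5% of all probe sets, and wild type replicate 1 was the brightest wild type array for 12, against 39.2% of all probe sets. In each group replicate 1 was the highest for 9 of the 20: all 3 of sex-1, the brighter one of xol-1, her-1, both of tra-3, sup-26 and the second of fem-1, where the wild type arrays hardly differed. Both probe sets of fem-1 and of fem-2 stood out on mutant replicate 1, and the brighter tra-2 probe set and fem-3 were lowest in wild type on its replicate 1.

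**Figure D3:**
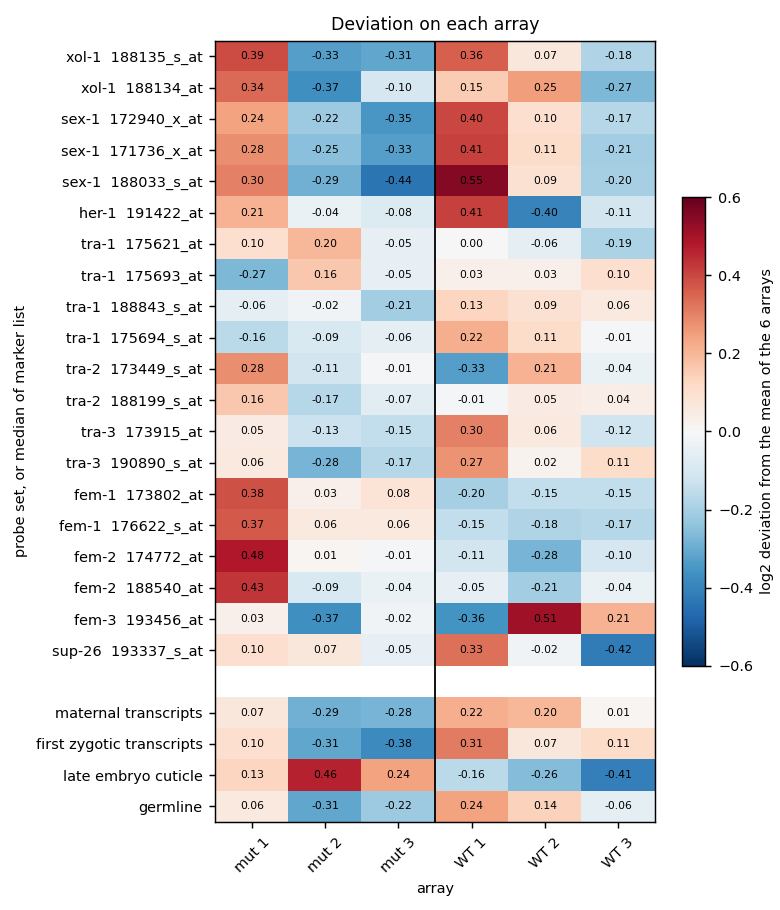
Deviation of each probe set from its mean over the 6 arrays, in log2 units, with the medians of 4 marker lists below. The arrays numbered 1 hold the highest values of sex-1, her-1 and tra-3 in each group, while the late embryo cuticle list is above 0 on all mutant arrays and below 0 on all wild type arrays.

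Markers of embryonic stage were read on the same arrays. The embryonic lineage markers pha-4, hlh-1, elt-2, unc-120 and end-1, 5 of 6 listed, were above the yeast controls on all arrays. Of these 0 passed and 2 had an unadjusted p under 0.05 (limma), with sums of 3106 to 3280 in the mutant and 3521 to 4011 in wild type. Of 10 late embryo cuticle genes 5 rose (dpy-5, dpy-8, dpy-9, rol-6 and sqt-1), with a list median of 0.59. Of these sqt-1 was above the yeast controls on only 3 arrays. Below 0 were dpy-7 (-0.24) and dpy-10 (-0.21). Summed intensities were 37622 to 40862 in the mutant and 37591 to 39040 in wild type. Most of each sum came from sqt-3, whose difference was 0.04, so the sums say little about the genes that rose. Of 10 maternal transcripts 0 passed and 3 had an unadjusted p under 0.05 (limma), with a median of -0.27 and sums of 12004 to 15303 in the mutant and 14654 to 17706 in wild type. Of 8 first zygotic transcripts 0 passed and 4 had an unadjusted p under 0.05 (limma), with a median of -0.38 and sums of 1621 to 2220 in the mutant and 2410 to 2776 in wild type, and med-1 was not above the yeast controls. Of 8 germline genes pgl-3 alone fell (-0.70) and 0 rose, and 4 had an unadjusted p under 0.05 (limma). The median of the germline list was -0.23, with sums of 3259 to 4390 in the mutant and 3389 to 4168 in wild type. Its members did not move together, as pgl-1 had a difference of 0.70 (limma adjusted p = 0.114). For comparison, 3.65% of all genes passed (3.02% higher and 0.627% lower in the mutant), and the median over all genes was -0.05.

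On mutant replicate 1 the medians of the maternal, zygotic and germline lists were 0.07, 0.10 and 0.06 above the mean of the 6 arrays, and on mutant replicates 2 and 3 they lay between -0.38 and -0.22. Their part in the differences of sex-1, xol-1, fem-1 and the other genes was not tested. Adult tissue was read from yolk, sperm and adult cuticle genes. Of 6 yolk protein genes, markers of the adult intestine, vit-2 and vit-5 were not above the yeast controls on any array, the 6 summed to 341 to 372 in the mutant and 318 to 340 in wild type, and vit-1 was the 1 that rose. Of 8 sperm genes 0 were above the yeast controls on all arrays, and spe-11, spe-38, spe-44 and gsp-4 were not above them on any array. The sums of the 8, at or near background, were 250 to 261 in the mutant and 261 to 289 in wild type. Of the 8, 0 passed and 3 had an unadjusted p under 0.05 (limma). Of 4 adult cuticle genes 2 were measured, 0 passed and 0 had an unadjusted p under 0.05 (limma), with sums of 61 to 71 in the mutant and 67 to 70 in wild type, and bli-1 was not above the controls.

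**Figure D4:**
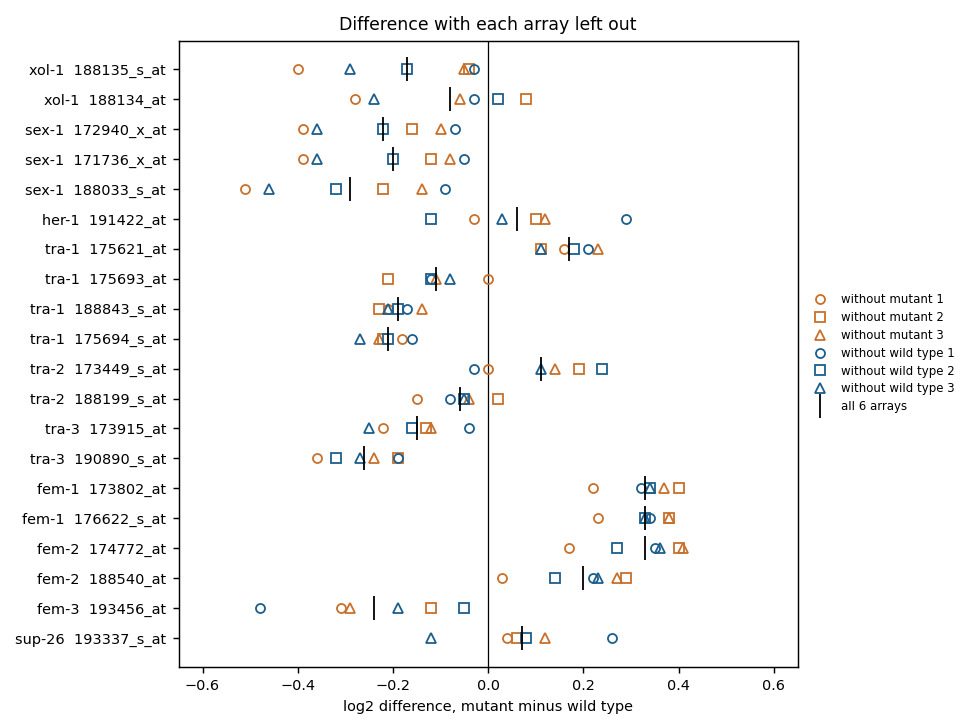
Difference between mutant and wild type in log2 units for each probe set, with all 6 arrays (black strokes) and with each array left out in turn (open symbols). The fem-1 values stay between 0.22 and 0.40, while those of her-1, tra-2 and sup-26 lie on both sides of 0.

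The rest of the pathway was read from 6 lists with 45 genes, of which 40 had a probe set of their own. Of these 40, 0 rose and 0 fell (limma), with 3.65% of all genes past the threshold, and 5 had an unadjusted p under 0.05, against 19.8% of all genes. The groups did not overlap for 7 of the 40, against 24.4% of all genes. The median difference was -0.06, against -0.05 over all genes. Without mutant replicate 1, however, 3 of the 40 were lower (sea-1, fog-2 and ceh-30), when 10.7% of all probe sets passed. Leaving out any other single array gave 0. With array weights 6 passed, when 18.6% of all probe sets did.

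Upstream of xol-1, the X signal elements fox-1, an RNA-binding protein gene, and ceh-39, a homeobox gene, and the autosomal elements sea-1, a T-box gene, and sea-2 had a median difference of -0.28. For fox-1 the mutant arrays had 749, 783 and 821, against 1134, 1012 and 839 in wild type, without overlap. Its difference of -0.33 did not pass (limma adjusted p = 0.212). The values of sea-1 were 1172, 608 and 641 in the mutant and 1100, 940 and 1079 in wild type, and mutant replicate 1 was the brightest array. The sea-1 difference was -0.43 (limma adjusted p = 0.410), and -0.73 without mutant replicate 1 (limma adjusted p = 0.0124). By the suffixes of their names, the probe sets read here for fox-1 and sea-1 may also bind other transcripts.

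The genes sdc-1, sdc-2 and sdc-3, which link sex determination to dosage compensation, had a median of 0.31. For sdc-2, the XX-specific trigger of dosage compensation, the mutant had 693, 544 and 723 and wild type had 244, 967 and 589. Wild type again held the lowest and the highest array, and the difference was 0.33 with a 95% interval of -0.77 to 1.42. The sdc-3 difference was 0.31, on a probe set that may also bind other transcripts. The 7 genes of the dosage compensation complex had a median of -0.01, with values from -0.26 for dpy-27 to 0.11 for dpy-26.

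**Figure D5:**
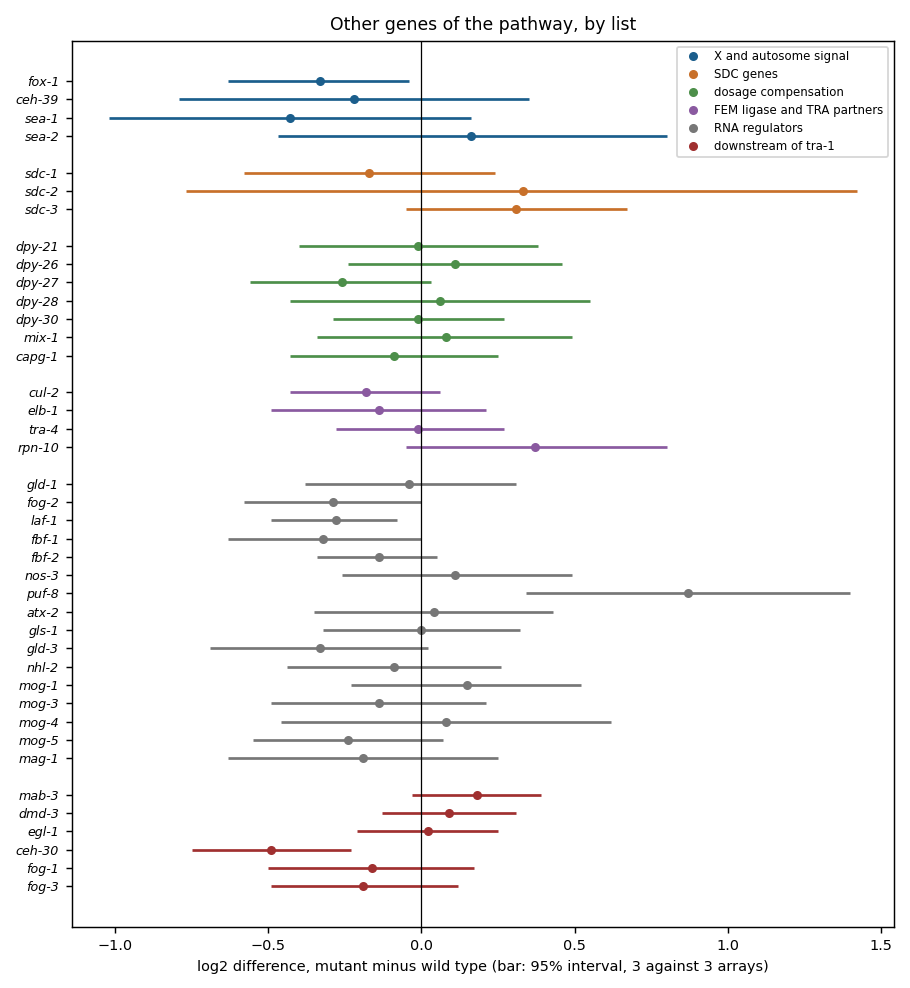
Difference between mutant and wild type in log2 units for the 40 other pathway genes, by list, with bars for the 95% interval of limma (3 arrays against 3). No gene passed the adjusted threshold, and puf-8 and ceh-30 lie farthest from 0.

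Partners of the FEM proteins and of the TRA proteins were close to 0 as a list, with a median of -0.07 over 4 measured genes. The largest difference was 0.37 for rpn-10, a ubiquitin receptor of the proteasome that acts on tra-2, with 2444, 1787 and 1623 in the mutant and 1526, 1277 and 1671 in wild type. The scaffold gene cul-2 of the FEM ubiquitin ligase had -0.18. Neither passed (limma adjusted p-values of 0.312 and 0.390), and elc-1 had no probe set of its own.

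Among 16 measured RNA regulators, which act on tra-2 and fem-3 messages mainly in the germline, the median was -0.11. The gene puf-8, of the Pumilio family of RNA-binding proteins, had the largest difference of the 40. It had 861, 500 and 559 in the mutant, against 293, 409 and 330 in wild type, and the groups did not overlap. The puf-8 difference was 0.87 (SE 0.22, n = 3 against 3, 95% interval 0.34 to 1.40, limma adjusted p = 0.0944), on 1 probe set that may also bind other transcripts. For gld-3, of the Bicaudal-C family, it was -0.33 on the brightest probe set (limma adjusted p = 0.285), and -0.12 and -0.03 on the others. The genes larp-1, mog-2 and mog-6 had no probe set under those names.

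Downstream of tra-1, 6 effectors of sex-specific fate were measured, with a median of -0.07, and mab-23 had no probe set of its own. The homeobox gene ceh-30, which protects male-specific sensory neurons from cell death, had 269, 266 and 237 in the mutant, against 386, 321 and 383 in wild type. All 3 mutant arrays were lower than all wild type ones. The ceh-30 difference was -0.49 (SE 0.11, n = 3 against 3, 95% interval -0.75 to -0.23, limma adjusted p = 0.0635), and without mutant replicate 1 it was -0.53 (limma adjusted p = 0.0471). For fog-3, which promotes sperm fate in the germline, the difference was -0.19. The fog-3 probe set was above the yeast controls on 3 of the 6 arrays.

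The genes whose levels followed xol-1, her-1 and sup-26 most closely over the 6 arrays were found by Pearson's correlation of log2 values, among genes at or above the median brightness. For xol-1 they were deps-1, btf-1 and C49F5.6, each with r = 0.996 or 0.995, and 330 of 8697 genes had r over 0.9. For her-1 they were ges-1, lhgd-1 and hmit-1.1 (r = 0.980, 0.980 and 0.979), and 49 of 8696 genes had r over 0.9. For sup-26 they were pqn-41, ucr-1 and tsr-1 (r = 0.989, 0.984 and 0.982), and 98 of 8696 genes had r over 0.9. With 6 arrays that share their scaling, such values describe the arrays, and many genes reach them.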

How the data were processed

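RNA of 6 embryo samples was hybridized to 1-colour Affymetrix arrays. The authors deposited normalized intensity values on a linear scale, made with Affymetrix Expression Console per the submitters' processing notes. Neither its version nor how probes were summarized is given in the sources used here. Description fields of the labels that name insect stages were set aside. The deposited log2 table equals log2 of these within 5.66e-06. Scaling between arrays hides a change in total RNA per embryo.

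Of 22625 probe sets 77 controls were left out. Log2 values without a pseudocount went into a limma 3.58.1 model (R 4.3.3; lmFit, then eBayes) of group alone, with 2-sided tests and no filter, adjusted over 22548 probe sets at 0.05, and tested on simulated data. Gene names come from the deposited table, updated through a RefSeq gene table (WBcel235), which matched 16889 of 17394 genes. Each other gene was read from its brightest probe set, which for part of them may also bind other transcripts, by the suffix of its name.

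The 10 genes and all lists were chosen with earlier results of these data known. From each list the text names genes past the threshold or else the 2 largest differences. It also names nhl-2, tied to the microRNAs before, and genes that passed under an alternative, chosen after their values were seen. With 3 arrays a group, the number of arrays limits precision. No probe set is named for the deleted microRNAs, so the deletion was not checked.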

Additional observations from a re-analysis of the deposited data

How the results depend on the processing

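Fits were repeated with array weights, with a replicate block, with a robust trended variance, after adding 16 to each intensity, after median centring or quantile normalization, without single arrays, without both arrays numbered 1, without the dimmest 25% or 50% (where dim probe sets of these genes have no value), on the log2 table, and per gene by the brightest or the mean probe set. The count of sex determination probe sets past the threshold was 0 in every fit. The lowest limma adjusted p of any alternative was 0.0637, for the second fem-1 probe set with array weights. Of 331 values for the 20 probe sets under these alternatives, 318 kept their sign and 13 did not. Part of the 318 could not change sign, since some fits leave each difference as it was. These were the fits with a replicate block, with a robust trended variance, without dim probe sets, on the log2 table and by the brightest probe set. Leaving out single arrays gave -0.28 to 0.08 for the dimmer xol-1 probe set, -0.12 to 0.29 for her-1, -0.21 to 0.00 for the second tra-1 probe set, -0.03 to 0.24 and -0.15 to 0.02 for tra-2, and -0.12 to 0.26 for sup-26. The other changes of sign were those of her-1 with median centring (-0.00), of tra-1 as a mean of its probe sets (-0.09), and of tra-2 with array weights (-0.08) and without both arrays numbered 1 (-0.14). The count over all probe sets was 785, and 470 without the dimmest 50%, 4195 with array weights and 3508 without both arrays numbered 1. It ran from 109 (without mutant replicate 3) to 2404 (without mutant replicate 1) when 1 array was left out. The others gave 147 (mutant replicate 2 out), 513 (wild type replicate 1 out), 161 (wild type replicate 2 out) and 252 (wild type replicate 3 out).

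Among the 40 pathway genes, 1 was higher and 5 lower with array weights: puf-8 at 0.59, and sea-1, fog-2, laf-1, fbf-1 and ceh-30. Without both arrays numbered 1, 0 were higher and 3 lower (sea-1, fog-2 and fbf-1). When 1 array was left out 0 were higher and 0 to 3 lower. The cause of these changes was not tested. With the replicate number as a block, 882 of all probe sets passed and the differences were unchanged, with 0 of the 20 and 0 of the 40 past the threshold. Whether the numbers pair the samples is not known. Deviations from the group means correlated at 0.20, 0.02 and 0.09 for numbers 1, 2 and 3. Mutant replicate 3 correlated best with wild type replicate 2 (0.34). With 3 arrays a group, whose deviations must cancel, these correlations cannot decide whether the samples were paired. For sex-1 172940_x_at the SE was 0.20 without the block and 0.09 with it, and for fem-3 it was 0.23 and 0.24.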
